A study of Mus musculus with 13 samples.

Results

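Translesion synthesis lets a cell copy past DNA lesions that stop the replicative polymerases. Specialised polymerases of low fidelity insert bases opposite the lesion or extend from it, and the ubiquitination of the sliding clamp PCNA helps to bring them to the stalled end. Primordial follicle oocytes are held in prophase of the first meiotic division and do not replicate their DNA, and they are known for their sensitivity to DNA damage. The 9 genes described here are Polk, Polh, Poli and Rev1 (polymerases of the Y family), Rev3l and Mad2l2 (the catalytic and an accessory subunit of polymerase zeta), Polq and Poln (polymerases of the A family) and Rad18 (a ubiquitin ligase that acts on PCNA). They were chosen by name, and all 9 were found among the 49585 genes of the series.

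Ovaries of P5 CD-1 mice were cultured and irradiated at 0.5 or 0.2 Gy, and RNA of oocytes isolated from them was sequenced at 5 times from 0 to 6 h, with 1, 2.5 and 4 h between. The ovaries of the earliest time were taken before the irradiation, and several ovaries were pooled for each time point, so that no library stands for a single animal. The 0.5 Gy series holds 8 libraries, of which 0, 1 and 4 h have 2 each and the remaining times 1 each, and the 0.2 Gy series holds 5 libraries with 1 at each time point. The labels give the first and second generation for 0.5 Gy and the third for 0.2 Gy, without saying what a generation is. Dose and generation therefore cannot be told apart. At 0.5 Gy the replicates of 0, 1 and 4 h are 1 of each generation. The single 2.5 and 6 h libraries are of the second. The libraries from 2.5 h on thus hold more of the second generation than those of 0 and 1 h. Time and generation are therefore partly confounded at 0.5 Gy. CD-1 mice were used at both doses, and the labels name no other treatment. No unirradiated library was taken after 0 h at either dose. Irradiation and hours in culture therefore cannot be told apart in any comparison over time.

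The libraries held between 15709549 and 30430104 estimated reads, and the shallowest was replicate 2 of 0 h at 0.5 Gy. The 0 and 1 h libraries of 0.2 Gy stood apart in that 42402 and 42612 genes had reads in them, against 35827 to 39035 in the other libraries. All 12 oocyte markers (among them Ddx4, Dazl, Gdf9 and Zp3) had more than 3 reads in every group, and so had all 10 granulosa and all 8 stroma markers, so that markers of other ovarian cells were detected throughout. The summed stroma markers ranged from 2034 to 3860 CPM (counts scaled to a common library size with edgeR's TMM factors) and the summed oocyte markers from 3117 to 4868 CPM over the early (0 and 1 h) and late libraries, where late means 2.5 h and after at 0.5 Gy and 4 and 6 h at 0.2 Gy. The 10 granulosa markers summed to between 1246 and 2113 CPM and the 3 endothelial markers to between 47.6 and 105 CPM. In such bulk samples fewer cells of a type and less RNA per cell cannot be told apart.

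To ask how strongly oocyte preparations express each gene, levels were compared per transcript length as TPM (transcript counts corrected for length and depth), averaged over all 13 libraries. Mad2l2, whose product REV7 tethers the polymerase zeta complex to REV1, had the highest level with 26.7 ± 6.10 TPM (SD, n = 13). Rad18 followed with 13.7 ± 2.51 TPM and Rev3l with 9.08 ± 1.86 TPM. Each of these steps was larger than the larger of both SDs, and the higher gene of each pair was higher in 12 of 13 libraries. Rev1 with 7.94 ± 1.94 TPM, Poln with 5.86 ± 2.34 TPM and Polk with 3.99 ± 1.94 TPM did not differ from their upper neighbours in this order by more than the larger SD.

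At the low end stood Poli with 1.96 ± 0.451 TPM, Polq with 1.34 ± 0.464 TPM and Polh with 0.834 ± 0.292 TPM. Polh, the polymerase that copies past UV-induced thymine dimers, had between 74 and 323 estimated reads per library, the smallest numbers of the 9 genes. Rev3l had between 2865 and 4901 estimated reads, which reflects its long mRNA as well as its level. The levels of several genes rest on how salmon divided the reads between their transcripts, since a gene-level TPM sums over them. With CPM divided by the length of the longest transcript and rescaled to the same total in each library, the order was Mad2l2, Rad18, Rev3l, Polk, Rev1, Poln, Poli, Polh and Polq.

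**Figure D1:**
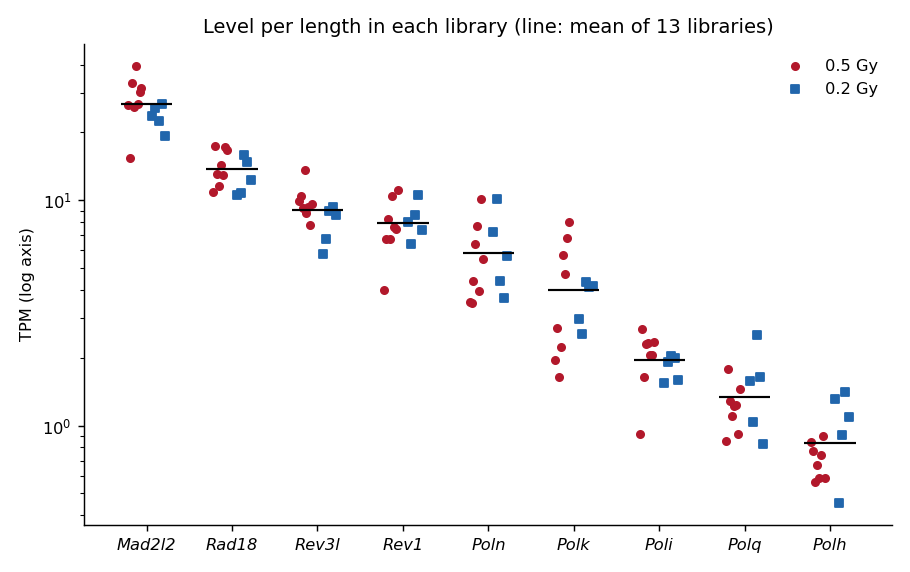
TPM (log axis) of the 9 translesion synthesis genes in each of 13 libraries, with 0.5 Gy as red circles and 0.2 Gy as blue squares, in order of time within a dose, and the mean of all libraries as a black line. The means fall from 26.7 TPM for Mad2l2 to 0.834 TPM for Polh, and the spread of Polk is the widest relative to its mean.

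Some reads could not be assigned to 1 gene with certainty. Of the 30-base stretches of Rev1 transcripts, 24.4% also occur in transcripts of other genes, nearly all of them in Eif5b, which overlaps exons of Rev1 on the opposite strand. The corresponding shares were 5.92% for Poli, 3.93% for Poln (which overlaps exons of Haus3 and of an antisense RNA), 2.27% for Polh and below 0.5% for Polk, Polq, Rad18, Rev3l and Mad2l2. Poli overlaps the exon of a miRNA gene, Mir6357, on the opposite strand. The values of Rev1, Poli and Poln are therefore uncertain. The use of strand in the quantification was not stated, and strand would not separate Poln from Haus3, which lies on the same strand. The gene that shared most stretches with Poli was Samsn1 (3.03%) and not Mir6357.

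The comparison of late with early libraries at 0.5 Gy asks which of the 9 genes changed in the hours after irradiation. Of the 9 genes, Polk rose and no other gene was called in either direction. Genes count as called here when edgeR's quasi-likelihood test gave a p under 0.05 after Benjamini-Hochberg adjustment and when they moved by more than 1 on the log2 scale. All 9 genes passed the filter on low counts, and of the 22588 genes tested 0.128% were called higher and 0% lower. At an unadjusted p under 0.05, 2 of the 9 genes passed (Polk and Rev3l), against 9.06% of all genes tested. The median log2 fold change of the 9 genes was 0.14, and that of all genes tested was -0.02.

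Polk encodes polymerase kappa, which extends from mismatched ends and copies past bulky adducts in the minor groove. The gene (ENSMUSG00000021668) lies on the reverse strand of chromosome 13 at 96480690 to 96542579 in GRCm38. At 0.5 Gy its level was 27.1 and 28.3 CPM at 0 h and 17.8 and 23.2 CPM at 1 h. It was 44.1 CPM at 2.5 h, 52.2 and 63.1 CPM at 4 h and 63.2 CPM at 6 h. The library of the second generation was the higher one of each replicate pair. Every library from 2.5 h on was above every library of 0 and 1 h, a separation in this direction that 3.15% of all genes tested also showed. The mean was 24.1 ± 4.73 CPM (SD, n = 4) in the early and 55.7 ± 9.27 CPM (SD, n = 4) in the late libraries, and the SDs include changes over time since each side pools time points. The log2 fold change was 1.203 (SE 0.20), with an adjusted p of 0.0451 in edgeR.

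The call of Polk was close to the threshold. Without any single one of the 8 libraries the adjusted p lay between 0.0658 and 0.198 while the log2 fold change stayed between 1.08 and 1.30, and with limma on log2(TPM + 1) the adjusted p was 0.143. In the fit of 11 libraries of both doses, in which 4 and 6 h were set against 0 and 1 h, the log2 fold change at 0.5 Gy was 1.30 (SE 0.19) with an adjusted p of 0.0248, and 0.124% of 28162 genes were called higher and 0.00355% lower. Polk and Rev3l had an unadjusted p under 0.05 in that fit, against 8.7% of all genes. That call was lost without replicate 1 of 0 h, either replicate of 1 h, replicate 2 of 4 h or the 6 h library of 0.5 Gy, with adjusted p up to 0.149.

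Against 0 h alone, no time point of 0.5 Gy gave a call for any of the 9 genes in edgeR, DESeq2 or limma. No gene of all 28468 tested was called at any time point in edgeR, so that 0% is the background there. Of all genes, DESeq2 called 17 higher and 14 lower at 1 h, and 50 higher and 59 lower at 2.5 h. At 4 h it called 109 higher and 32 lower, and at 6 h it called 95 higher and 53 lower. In limma 81 were higher and 12 lower at 2.5 h, 65 higher and 9 lower at 6 h, and 0 at the remaining times. At an unadjusted p under 0.05, Polk and Rev3l passed at 4 h, where 5.82% of all genes did, and Polk passed at 6 h, where 5.94% did. No member passed at 1 h (3.98% of all genes) or at 2.5 h (5.59%). The log2 fold changes of Polk were -0.40 (SE 0.29) at 1 h, 0.70 (SE 0.34) at 2.5 h, 1.09 (SE 0.29) at 4 h and 1.24 (SE 0.34) at 6 h. These 4 comparisons share the 0 h libraries.

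**Figure D2:**
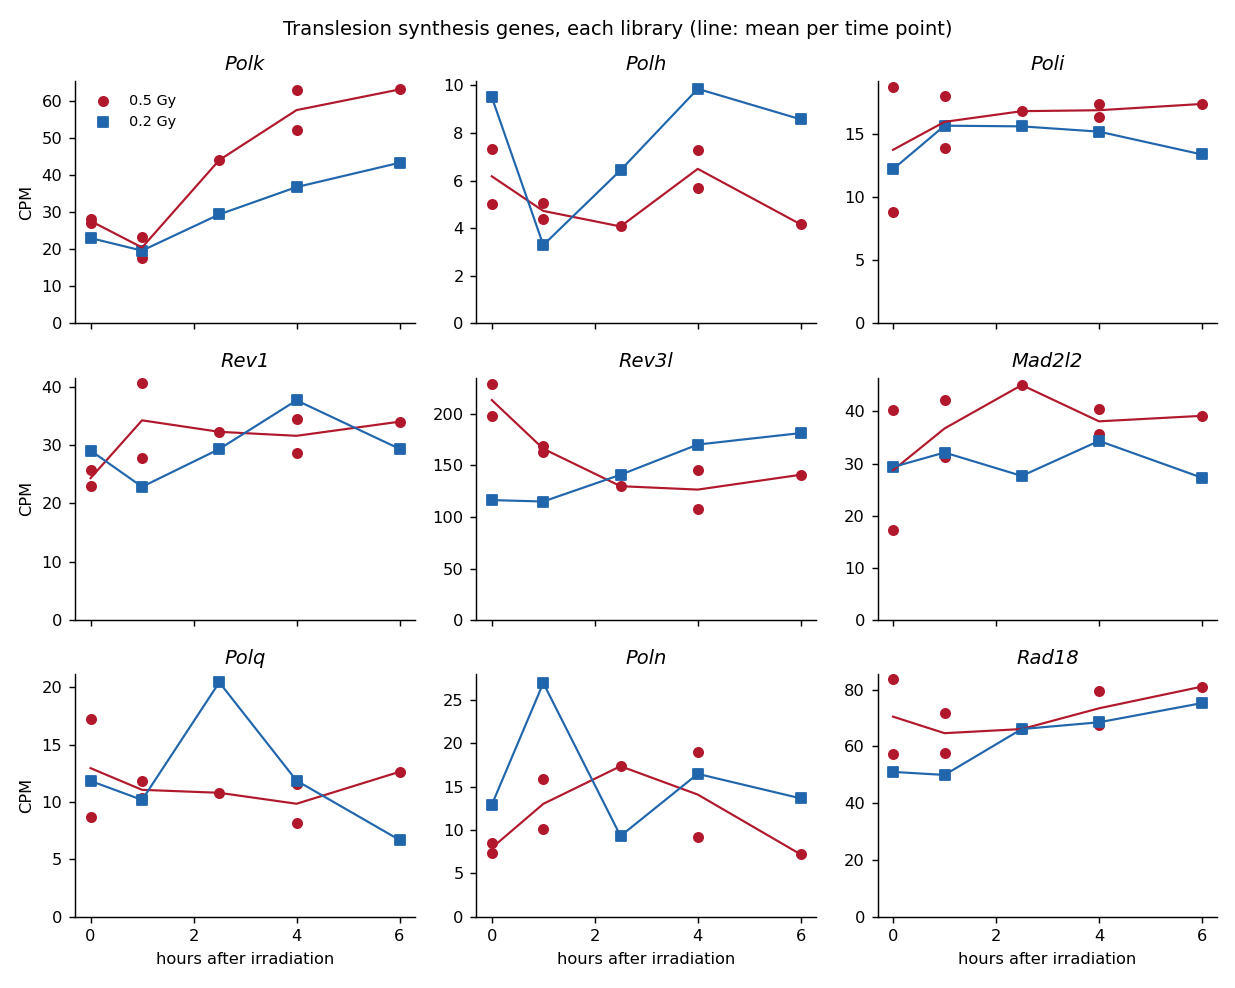
Level in CPM (linear axes from 0) of each of the 9 genes against hours after irradiation, with each library of 0.5 Gy as a red circle and of 0.2 Gy as a blue square, and lines through the means. Polk climbs from 17.8 to 63.2 CPM at 0.5 Gy and from 19.7 to 43.4 CPM at 0.2 Gy, and the Rev3l lines cross.

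At 0.2 Gy the level of Polk was 23.1 CPM at 0 h, 19.7 CPM at 1 h, 29.5 CPM at 2.5 h, 36.8 CPM at 4 h and 43.4 CPM at 6 h. Both late libraries were above both early ones, which was also so for 20.3% of all genes tested. The log2 fold change of 4 and 6 h against 0 and 1 h was 0.91 (SE 0.25), with an unadjusted p of 0.00359, which adjustment raised to 0.494 in edgeR. No member was called at 0.2 Gy, where 0.0355% of 28162 genes were called higher and 0.0107% lower. At an unadjusted p under 0.05, 3 of the 9 genes passed there (Polk, Rev3l and Rad18, all higher), against 7.29% of all genes. Polk was above the early libraries at both doses, as were 1.17% of all genes. The fold change at 0.2 Gy minus that at 0.5 Gy was -0.40 (SE 0.32) on the log2 scale, with an unadjusted p of 0.233 and an adjusted p of 0.758, so that a difference between the doses was not shown. In CPM the mean level at both doses was lowest at 1 h and highest at 6 h. As TPM, Polk at 0.2 Gy was highest at 2.5 h, with 4.33 TPM beside 4.13 TPM at 4 h and 4.18 TPM at 6 h.

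Averaged over both doses, Polk rose by a log2 fold change of 1.11 (SE 0.16) with an adjusted p of 0.0139 in edgeR. It was the 1 gene of the 9 that was called, where 0.142% of 28162 genes were called higher and 0.0213% lower. Polk and Rad18 had an unadjusted p under 0.05, against 7.89% of all genes. The call was lost without replicate 2 of 4 h or the 6 h library of 0.5 Gy, or without the 0, 1 or 6 h library of 0.2 Gy, with adjusted p up to 0.196. With the 2.5 h libraries counted as late the adjusted p was 0.0171 and the log2 fold change was 0.99, just under the threshold.

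The summed markers of blood and macrophages ranged from 1683 to 2620 CPM in the early and from 1903 to 4735 CPM in the late libraries of 0.5 Gy. At 0.2 Gy they ranged from 1190 to 1245 CPM in the early and from 1355 to 2681 CPM in the late libraries, and the summed oocyte markers from 3117 to 3885 CPM and from 4050 to 4568 CPM. The members of the blood and macrophage list did not move together, since in the fit of both doses at 0.5 Gy Hba-a1 and Hbb-bs were higher and S100a8 and S100a9 lower with an unadjusted p under 0.05, and the log2 fold changes of the 7 genes ran from -3.71 to 0.94. All 7 blood and macrophage markers had more than 3 reads in each of these groups. Their part in the level of Polk was not tested.

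Of the 11 Polk transcripts in the files, Polk-201, the full-length coding transcript of 4225 bases, held between 65.9% and 92.04% of the estimated reads of the gene. Its level went from 15.2 to 26.04 CPM in the early to 35.4 to 52.1 CPM in the late libraries of 0.5 Gy, and from 14.8 to 18.8 CPM to 29.5 to 34.5 CPM at 0.2 Gy. Polk-209, a processed transcript of 1671 bases inside the gene, held between 5.20% and 22.4% of the reads and was also higher in all late than in all early libraries at both doses. The short coding transcript Polk-211 had at most 0.504 CPM in the early and 0.697 to 2.63 CPM in the late libraries of 0.5 Gy, whereas the groups overlapped at 0.2 Gy. Reads of 30 bases limit how far transcripts of 1 gene can be told apart, and no test was made on them.

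**Figure D3:**
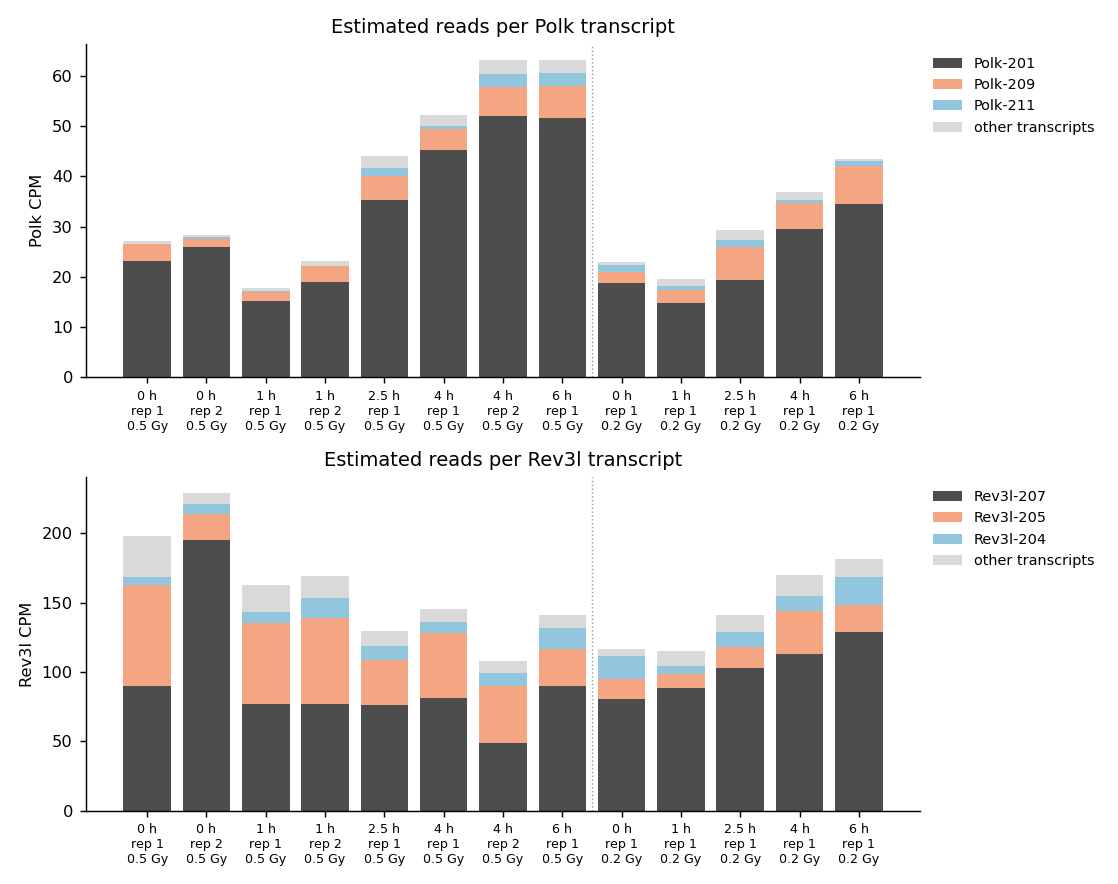
Stacked bars of the estimated reads, in CPM, of the transcripts of Polk (top) and Rev3l (bottom) in each of 13 libraries, with a dotted line between the doses. The dark Polk-201 segment makes up most of each bar and carries most of the rise, and the 0 h replicates of Rev3l at 0.5 Gy differ in how their reads were divided between Rev3l-207 and Rev3l-205.

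Since Polk was the gene that rose, the 250 bases before its RefSeq starts are shown (GRCm38.p6, reverse strand, 5′ to 3′). The first line is the window at the 5′ end of the gene, chr13:96542580-96542829, which is 68% G and C and holds 1 match to GGGCGG on either strand. The second line is chr13:96519188-96519437, before a start that coincides with the first base of exon 2 of Polk-201, so that these bases are the end of intron 1. Capitals mark the 1 match without mismatch to the half-site of the p53 family response element.
Polk 5′ end: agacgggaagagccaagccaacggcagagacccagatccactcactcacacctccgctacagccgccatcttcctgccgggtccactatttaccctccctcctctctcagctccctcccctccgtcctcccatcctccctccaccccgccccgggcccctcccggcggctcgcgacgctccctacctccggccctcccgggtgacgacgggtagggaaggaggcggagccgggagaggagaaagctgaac
Polk intron 1: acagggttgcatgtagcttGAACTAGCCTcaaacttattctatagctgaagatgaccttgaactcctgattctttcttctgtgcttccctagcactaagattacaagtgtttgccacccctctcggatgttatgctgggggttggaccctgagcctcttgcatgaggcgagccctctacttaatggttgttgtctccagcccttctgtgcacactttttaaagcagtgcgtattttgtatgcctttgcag
A half-site was in 8.36% of 32851 such RefSeq windows of 300 bases (which also hold the first 50 bases after the start) and GGGCGG in 32.7% of the upstream parts. A full element of 2 adjacent half-sites, with the C and G of each intact and up to 2 mismatches elsewhere, was in 0.326% of windows and in none of the 10 windows of 7 members, and half-sites were in no other window of a member. RefSeq windows for Poli and Rev3l were not used here. By the same count, windows of Ccng1 and Cdkn1a, genes of the p53 family response listed below, held a full element. Those of Phlda3, Sesn2, Mdm2 and Eda2r from that list held 0, as did another window of Cdkn1a. The absence of a full element from such a window is therefore no result about a gene. A match is a description of the letters and not a bound site.

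Rev3l, the catalytic subunit of polymerase zeta, which extends from bases inserted opposite lesions, was the member whose late libraries lay on opposite sides of the early ones at the 2 doses. The gene (ENSMUSG00000019841) lies on the forward strand of chromosome 10 at 39732118 to 39875211. At 0.5 Gy its level was 198 and 229 CPM at 0 h, 163 and 169 CPM at 1 h, 130 CPM at 2.5 h, 145 and 108 CPM at 4 h and 141 CPM at 6 h. Every late library was below every early one, as for 2.12% of all genes tested. At 0.2 Gy it was 116 CPM at 0 h, 115 CPM at 1 h, 141 CPM at 2.5 h, 170 CPM at 4 h and 181 CPM at 6 h. Both late libraries were above both early ones, as for 20.3% of all genes. Of all genes tested, 0.92% lay below at 0.5 Gy and above at 0.2 Gy in this way. The 0 and 1 h libraries of 0.2 Gy are those in which the largest numbers of genes had reads. They also had the highest TMM factors, 1.12 and 1.11. How far this entered the levels of Rev3l was not tested.

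The log2 fold change of Rev3l in the fit of both doses was -0.53 (SE 0.16) at 0.5 Gy, with an adjusted p of 0.373 in edgeR, and 0.60 (SE 0.21) at 0.2 Gy, with an adjusted p of 0.638. Neither was called. The difference between the doses was 1.13 (SE 0.27) on the log2 scale, with an unadjusted p of 0.00113, which adjustment in edgeR raised to 0.39. No member was called in this difference, for which 0.0249% of all genes were called higher and 0.0071% lower, and Rev3l was the 1 member with an unadjusted p under 0.05, against 8.14% of all genes. DESeq2's Wald test called this difference at 1.19 with an adjusted p of 0.0275, where 0.319% of genes were called higher. The early levels differed between the series, with 163 to 229 CPM at 0.5 Gy and 115 to 116 CPM at 0.2 Gy, and the 0 h ovaries had not been irradiated. The summed stroma markers ranged from 2794 to 3860 CPM in the early and from 2384 to 3111 CPM in the late libraries of 0.5 Gy, and from 2034 to 2964 CPM and from 2919 to 3430 CPM at 0.2 Gy. The granulosa markers summed to 1246 to 1821 CPM and 1296 to 1868 CPM at 0.5 Gy, and to 1255 to 1832 CPM and 1475 to 2113 CPM at 0.2 Gy. All markers of both lists had more than 3 reads in each of these groups. The summed markers of proliferating cells ranged from 1122 to 1618 CPM in the early and from 1077 to 1306 CPM in the late libraries of 0.5 Gy. At 0.2 Gy they ranged from 1130 to 1208 CPM and from 1228 to 1248 CPM, and the part of these 3 cell types in the level of Rev3l was not tested.

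On the TPM scale the separation of Rev3l at 0.5 Gy was lost, with 9.22 to 13.6 TPM in the early and 7.74 to 9.65 TPM in the late libraries. At 0.2 Gy it held, with 5.80 to 6.71 TPM and 8.64 to 9.33 TPM. The reads were mainly those of Rev3l-207, a coding transcript of 10399 bases with between 45.5% and 85.2% of the reads of the gene. Rev3l-205, a transcript of 4858 bases annotated for nonsense-mediated decay that covers the 3′ part of the gene, held between 8.11% and 38.0%. At 0 h of 0.5 Gy, Rev3l-207 was estimated at 90.1 CPM in replicate 1 and 195 CPM in replicate 2, and Rev3l-205 at 72.6 CPM and 18.6 CPM.

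Mad2l2, the partner of Rev3l in polymerase zeta, showed no such pattern. Its level ranged from 17.2 to 42.2 CPM in the early and from 35.8 to 45.1 CPM in the late libraries of 0.5 Gy, and from 29.4 to 32.1 CPM and 27.3 to 34.4 CPM at 0.2 Gy. The lowest value was that of replicate 2 of 0 h, the shallowest library, in which Mad2l2 was lower than in replicate 1 by a factor of 2.34. The log2 fold changes were 0.23 (SE 0.26) at 0.5 Gy and 0.00 (SE 0.34) at 0.2 Gy.

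Rad18 marks PCNA with ubiquitin together with a conjugating enzyme and so recruits the Y-family polymerases. At 0.5 Gy it was at 57.3 and 83.7 CPM at 0 h, 71.7 and 57.7 CPM at 1 h, 66.1 CPM at 2.5 h, 67.5 and 79.4 CPM at 4 h and 81.1 CPM at 6 h, so that the early and late libraries overlapped. At 0.2 Gy it was at 51.0 CPM at 0 h, 49.96 CPM at 1 h, 66.1 CPM at 2.5 h, 68.5 CPM at 4 h and 75.3 CPM at 6 h. Both late libraries of 0.2 Gy were above the early ones, as for 20.3% of all genes tested. The log2 fold change was 0.17 (SE 0.17) at 0.5 Gy, 0.51 (SE 0.22) at 0.2 Gy and 0.34 (SE 0.14) over both doses, where the adjusted p was 0.596 in edgeR. No call was made for Rad18 in any comparison.

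Among the other Y-family genes, Rev1, which serves as a scaffold for the other polymerases and inserts cytosine, ranged from 23.0 to 40.7 CPM in the early and from 28.7 to 34.6 CPM in the late libraries of 0.5 Gy. At 0.2 Gy it ranged from 22.9 to 29.1 CPM in the early libraries. It was at 37.7 CPM at 4 h and 29.4 CPM at 6 h, so that the groups there did not overlap. This rested on 29.4 against 29.1 CPM, and 20.3% of all genes tested showed such a separation. As TPM the groups overlapped, with 6.40 to 7.99 TPM in the early and 7.37 to 10.6 TPM in the late libraries. The log2 fold changes of Rev1 were 0.14 (SE 0.22) and 0.37 (SE 0.29) at the higher and the lower dose. Poli was at 8.80 and 18.7 CPM in the 0 h replicates of 0.5 Gy, a wider range than the 16.4 to 17.4 CPM of all 4 late libraries. Polh was at 4.07 to 7.35 CPM in the libraries of 0.5 Gy and at 3.29 to 9.86 CPM in those of 0.2 Gy. The log2 fold changes of Poli were 0.20 (SE 0.26) and 0.03 (SE 0.34) and those of Polh 0.07 (SE 0.38) and 0.52 (SE 0.49) at 0.5 and 0.2 Gy, all within 2 SE of 0.

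The A-family genes varied widely between libraries. Polq, which joins broken DNA ends through short homologies, was at 8.68 and 17.2 CPM in the 0 h replicates of 0.5 Gy, and at 20.4 CPM in the 2.5 h library and 6.69 CPM in the 6 h library of 0.2 Gy. Its log2 fold changes were -0.15 (SE 0.30) and -0.25 (SE 0.40) at 0.5 and 0.2 Gy. Poln was at 9.22 and 18.99 CPM in the 4 h replicates of 0.5 Gy and at 27.0 CPM in the 1 h library of 0.2 Gy. Its log2 fold changes were 0.17 (SE 0.38) and -0.41 (SE 0.50). Over the replicate pairs of 0, 1 and 4 h, the larger value of Poln exceeded the smaller by a factor of 1.15 to 2.06, and that of Polk by 1.04 to 1.31. At 0 h this factor was 2.13 for Poli and 2.34 for Mad2l2, so that wide variation was not particular to the A family.

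**Figure D4:**
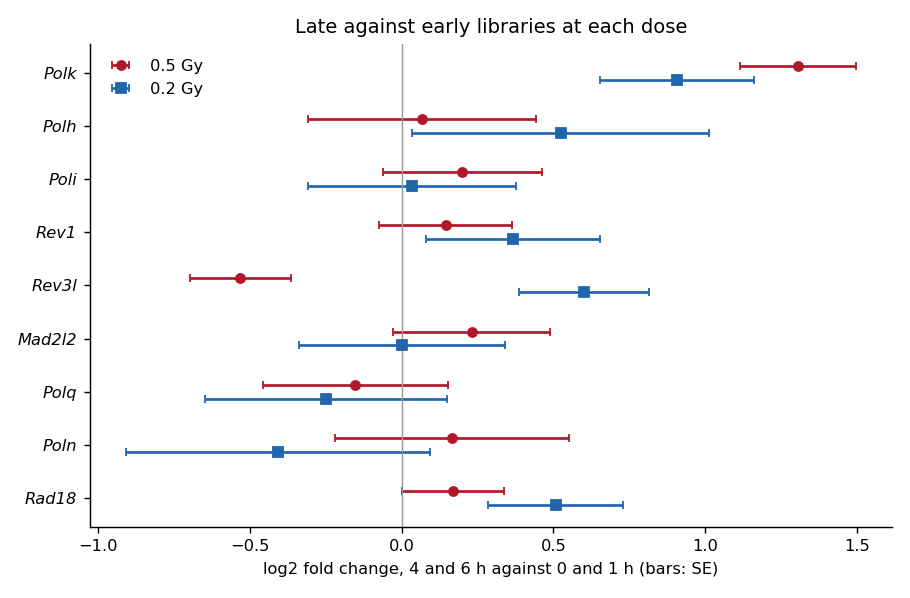
Log2 fold change of 4 and 6 h against 0 and 1 h with its SE for the 9 genes, with 0.5 Gy as red circles and 0.2 Gy as blue squares. Polk is at 1.30 and 0.91, Rev3l at -0.53 and 0.60, and the other 7 genes lie between -0.41 and 0.52.

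The genes around these polymerases were compared by list. Of 19 damage tolerance partners, none was called at 0.5 Gy, at 0.2 Gy, in their difference or in their mean by edgeR, DESeq2 or limma. Of all genes, edgeR called 0.124% higher at 0.5 Gy, 0.0355% at 0.2 Gy, 0.0249% in the difference and 0.142% in the mean. Fewer were called lower, so that the absence of a call is no result about this list. Their median log2 fold change was -0.12 at 0.5 Gy and 0.18 at 0.2 Gy, beside -0.02 and -0.03 for all genes tested. At an unadjusted p under 0.05 in the fit of both doses, 4 were lower and 1 was higher at 0.5 Gy, against 4.27% and 4.43% of all genes, and none passed at 0.2 Gy. These 5 genes were picked out after their values were seen. The lower ones were Pcna (the sliding clamp) at -0.35 (SE 0.15), Usp1 (which removes ubiquitin from PCNA) at -0.62 (SE 0.21), Atad5 (which unloads PCNA) at -0.66 (SE 0.22) and Pclaf (a PCNA-associated factor) at -0.93 (SE 0.18). The higher one was Wdr48, an activator of Usp1, at 0.40 (SE 0.18). The 4 lower genes also had an unadjusted p under 0.05 in the difference between doses, where 4.2% of all genes passed in this direction. Their fold changes were higher at 0.2 Gy by 0.70 to 1.06 on the log2 scale. That difference contains the 0.5 Gy fold changes by which they were picked, so that it is no second observation.

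Of 19 other DNA polymerase genes, none was called in these comparisons by any of the 3 tools. The shares of all genes called are those given for the partners, so that this too is no result about the list. The median log2 fold change was -0.02 at 0.5 Gy and 0.11 at 0.2 Gy. At an unadjusted p under 0.05, Pola1 (the catalytic subunit of polymerase alpha) was at -0.62 (SE 0.19) and Pold3 (a subunit of polymerase delta) at 0.41 (SE 0.19) at 0.5 Gy, against 4.27% of all genes lower and 4.43% higher. No gene of this list passed at 0.2 Gy. In the difference between doses Pola1 at 0.82 (SE 0.30) and Pole4 (a small subunit of polymerase epsilon) at 0.99 (SE 0.37) passed, against 4.2% of all genes in this direction. These 3 genes were also named after their values were seen. The difference contains the 0.5 Gy fold change of Pola1 and is no second observation of it.

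In the list of 8 genes of the p53 family response, edgeR called 7 higher at 0.5 Gy (Ccng1, Cdkn1a, Eda2r, Mdm2, Phlda3, Sesn2 and Trp53inp1). The share of all genes was 0.124%, and the median log2 fold change of the list was 2.58. DESeq2 called all 8 there and limma 2 (Cdkn1a and Eda2r). Of all genes, DESeq2 called 190 higher and 62 lower there, and limma 10 higher and 0 lower. At 0.2 Gy none was called by edgeR or limma and 5 were called by DESeq2, which called 83 higher and 64 lower of all genes. All 8 had an unadjusted p under 0.05 in edgeR at that dose, and the median was 1.59. This list holds genes known from earlier results of these data to respond and is not independent evidence. The log2 fold change of Polk, 1.30, was below the lowest of the 8 genes at 0.5 Gy, 1.33, and at 0.2 Gy it was 0.91 beside a lowest of 0.78. Of the p53 family itself, Trp53, Trp63 and Trp73, none was called by edgeR, 1 was at an unadjusted p under 0.05 at 0.5 Gy (Trp73) and DESeq2 called that gene there.

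**Figure D5:**
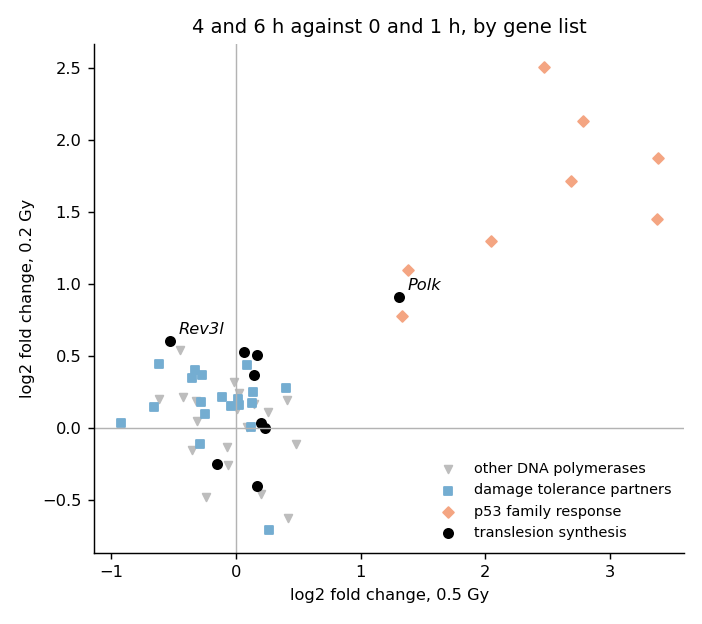
Log2 fold change of 4 and 6 h against 0 and 1 h at 0.5 Gy (horizontal) and 0.2 Gy (vertical) for the 9 translesion synthesis genes (black circles), 19 damage tolerance partners (blue squares), 19 other DNA polymerase genes (grey triangles) and 8 genes of the p53 family response (orange diamonds). Polk lies at the lower end of the p53 family response genes, and the other 8 members lie among the partners and the other polymerases.

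The genes whose levels were most like those of Polk were sought by Pearson's r of log2 CPM over the 13 libraries among 19064 protein-coding genes. These r share the same libraries and the same time course and are given as a description. The 5 highest were Socs7 (0.952), Mdm2 (0.949, the ubiquitin ligase of p53), Igfals (0.941), Nfe2l2 (0.935, a transcription factor of the oxidative stress response) and Ccng1 (0.928, cyclin G1). Of these, Mdm2, Igfals and Ccng1 were called late against early at 0.5 Gy, with log2 fold changes of 2.63, 4.02 and 1.95, and Socs7 at 0.83 and Nfe2l2 at 0.43 were not. The r of Polk with the other 8 members ranged from -0.21 for Polq to 0.61 for Rad18.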

How the data were processed

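RNA was sequenced in 13 libraries of pooled oocytes in reads of 30 bases, which the sources describe both as single-end and as paired-end. The authors quantified transcripts with salmon against GRCm38 and deposited, per library, estimated counts and TPM per transcript. The other deposited tables were not used here. They hold the authors' own DESeq2 comparisons (fold changes and p-values; DESeq2 1.24.0 per the submitters' processing notes) and a merged table of normalized counts.

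Estimated counts were summed per gene and rounded, and 402 transcripts without a gene (at most 0.495% of reads) were left out. Library totals ranged from 15709549 to 30430104 reads. Genes were tested with edgeR 4.0.16 in R 4.3.3 (TMM factors, filterByExpr, quasi-likelihood test, Benjamini-Hochberg over all genes tested). Late against early and the time points were compared within 0.5 Gy, and both doses were fitted together over the 11 libraries of 0, 1, 4 and 6 h. DESeq2 1.42.0, limma 3.58.1 on log2(TPM + 1), other scaling, no filter, length-corrected counts, a replicate block and leaving out each library were tried as alternatives. The fitting code was tested on simulated data.

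The members and lists were chosen with earlier results of these data known. The rule named all 9 members, list genes called in any comparison and the 5 genes most like the member with the largest change. Outside it, partner and polymerase genes with an unadjusted p under 0.05 were named after their values were seen. The labels do not say whether replicates come from separate cultures, so that p-values measure only the spread between these libraries, which may be technical. Since no genome sequence was used here, promoters were read from RefSeq windows of 300 bases (GRCm38.p6) in place of the longer window that had been planned. Replicate numbers of 0, 1 and 4 h at 0.5 Gy follow the generation in the labels. The single libraries of 2.5 and 6 h are of the second generation.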

Additional observations from a re-analysis of the deposited data

Results flagged for a closer look

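The log2 fold change of Rev3l at 0.2 Gy minus that at 0.5 Gy was 1.13 (SE 0.27). It stood out because all late libraries of 0.5 Gy lay below the early ones and both late libraries of 0.2 Gy lay above them. The test of the difference gave an adjusted p of 0.39 in edgeR and was not passed, and without any 1 library the difference lay between 1.00 and 1.21. DESeq2 gave 1.19 with an adjusted p of 0.0275, limma on log2(TPM + 1) gave 0.70 with an adjusted p of 0.626, and length-corrected counts gave 0.94 with an adjusted p of 0.548 in edgeR. Dose and generation cannot be told apart here. The early side of 0.2 Gy holds the libraries with reads in the largest numbers of genes, and their part in the difference was not tested. In 18 groups of 4 or more values, no library lay apart from the others of its group by Dixon's criterion. The early and the late side of 0.2 Gy hold 2 libraries each and are too small for this check.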

How the results depend on the processing

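Polk was called late against early, at 0.5 Gy in the fit of both doses and in the mean of both doses by edgeR and DESeq2. With limma the number of members called was 0 in all 3, with Polk at 1.21, 1.25 and 0.85 on the log2(TPM + 1) scale. With the replicate block it was 0 late against early (Polk 1.16, adjusted p 0.0735 in edgeR), and the block changed no other call among the members. The differences between replicates 1 and 2 correlated over 19065 genes at 0.119 between 0 and 1 h, 0.0401 between 0 and 4 h and 0.114 between 1 and 4 h, so that the numbers were not taken as pairs. It was 0 in the mean of both doses with 2.5 h counted as late. DESeq2 called 1 member, Rev3l, in the difference between doses. Leaving out 1 library, the number of members called was 0 throughout late against early, and 0 to 1 at 0.5 Gy and in the mean of both doses. The cause was not tested.

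Signs turned only for values that were not called. Rev3l at 1 h became 0.13 with limma and 0.17 with length-corrected counts, and its mean of both doses -0.015 with 2.5 h as late. At 0.2 Gy, Mad2l2 became -0.11 with limma, -0.019 with length-corrected counts and -0.048 with 2.5 h as late, and Polq became 0.24 with 2.5 h as late. Leaving out 1 library at 0.2 Gy, Mad2l2 ranged from -0.19 to 0.17, Polh from -0.038 to 1.53, Poli from -0.089 to 0.23, Poln from -0.80 to 0.23 and Polq from -0.73 to 0.12. At 0.5 Gy, Polh ranged from -0.15 to 0.25, Poln from -0.36 to 0.44 and Polq from -0.28 to 0.092. Rev3l in the mean of both doses ranged from -0.0044 to 0.10.

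As CPM per kb of the longest transcript and rescaled to a common total, levels were 37.0 for Mad2l2, 31.9 for Rad18, 23.9 for Rev3l, 14.4 for Polk, 11.9 for Rev1, 7.83 for Poln, 7.37 for Poli, 4.05 for Polh and 2.29 for Polq. Of all genes, edgeR called 29 higher and 0 lower late against early, DESeq2 194 and 57, limma 6 and 1, and edgeR without a filter 53 and 5. At 0.2 Gy edgeR called 10 and 3, DESeq2 83 and 64, and limma 22 and 112. For 0.5 Gy in the fit of both doses edgeR called 35 and 1, DESeq2 190 and 62, and limma 10 and 0. In the mean of both doses edgeR called 40 and 6, DESeq2 135 and 54, and limma 24 and 62. Reads as few as 74 limit Polh, and 1 library per time point limits 0.2 Gy.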
